A study of Mus musculus with 146 samples.

Results

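The 72 libraries described here are the 36 with the highest and the 36 with the lowest level of a 5-gene amino acid stress score among 146 RNA-seq libraries of bone marrow-derived macrophages. The score was the mean of the levels of Asns, Psat1, Chac1, Trib3 and Phgdh, each taken as log2(CPM + 1) (CPM, counts scaled to the library's total), centred within its library plate and scaled to z-scores over the 146 libraries. The groups were therefore selected on measured values and not on a label. Scores of the 36 stress-high libraries ran from 0.584 to 1.66, scores of the 36 stress-low libraries from -2.68 to -0.484, and 74 libraries lay between them. The lowest stress-high score was 0.584 and the next library in order had 0.562. At the other edge the highest stress-low score was -0.484 and the neighbouring library had -0.473, so both boundaries cross a continuous range.

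Every library came from 1 mouse of the outbred CFW stock (Crl:CFW(SW)-US_P08), 16 weeks old. Marrow cells had been grown for 5 days with 25% L929-conditioned medium, the usual source of macrophage growth factor, and 25% fetal bovine serum. The labels give no treatment of any culture, so "stress" names the score genes and not an exposure. The stress-high group held 21 female and 15 male libraries, as did the stress-low group (Fisher's exact test, two-sided, p = 1). The submitters describe the series as a study of a macrophage gene network and wound healing; neither genotypes nor wounds were analysed here.

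The integrated stress response joins several alarms to a single switch. Kinases that sense uncharged tRNA, unfolded protein in the endoplasmic reticulum, haem shortage or double-stranded RNA phosphorylate the translation factor eIF2, which slows most protein synthesis while favouring translation of the transcription factor ATF4. ATF4, with partners of the C/EBP family, switches on enzymes that make amino acids, the carriers that import them, and the aminoacyl-tRNA synthetases that load them onto tRNA. Prolonged signalling also raises regulators such as CHOP (Ddit3), Trib3 and Chac1. Growth signals through mTORC1 also drive ATF4 target genes, and serine and glycine synthesis feeds nucleotide and glutathione production.

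The 5 score genes were spread as follows, given as a description with no test because they chose the groups. Asns (chromosome 6, 7675169 to 7693254, minus strand, GRCm38) makes asparagine; its lowest, median and highest levels were 106, 165 and 241 CPM in stress-high libraries, against 67, 102 and 178 CPM in stress-low libraries. Psat1 and Phgdh encode the enzymes of the first steps of serine synthesis from a glycolytic intermediate. Psat1 (chromosome 19, 15904678 to 15947337) had 132, 197 and 284 CPM in stress-high libraries and 108, 140.3 and 227 CPM in stress-low libraries. For Phgdh (chromosome 3, 98313170 to 98339990) the values were 22.3, 37.4 and 60.6 CPM in stress-high libraries and 12.7, 22.7 and 38.8 CPM in stress-low libraries; 54% of its 50-base words occur in another annotated gene, so its count is uncertain. The enzymes of the synthesis steps thus overlapped widely between the groups. Chac1 (chromosome 2, 119351229 to 119354381) degrades glutathione, and had 0.750, 5.56 and 25 CPM in stress-high libraries, against 0.172, 2.21 and 7.29 CPM in stress-low libraries. Trib3 (chromosome 2, 152337422 to 152344032), a pseudokinase that restrains ATF4 and CHOP, had 10.2, 28.5 and 83 CPM in stress-high libraries and 4.87, 13.9 and 30.9 CPM in stress-low libraries. Chac1 and Trib3 had the wider relative gaps between medians, and the groups overlapped for each of the 5 genes.

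The score joined a pair of looser parts rather than a single axis. Over the 146 libraries, Asns, Psat1 and Phgdh were correlated with one another at Pearson r of 0.845 (Asns and Psat1), 0.769 (Psat1 and Phgdh) and 0.713 (Asns and Phgdh), and Chac1 with Trib3 at 0.812. Across these sets the 6 correlations lay between 0.0943 (Psat1 and Chac1) and 0.403 (Asns and Trib3). These are descriptions over libraries that share plates, dates and depth normalisation. The mean z-score of Asns, Psat1 and Phgdh, called here the synthesis arm, and that of Chac1 and Trib3, the regulator arm, had r = 0.254 (Spearman's rho 0.236, n = 146). Of the 36 stress-high libraries, 27 were above 0 in both arms, 6 in the synthesis arm alone and 3 in the regulator arm alone. Among the 36 stress-low libraries, 29 were at or below 0 in both, 3 were above 0 in the synthesis arm and 4 in the regulator arm. Both arms are made of the genes that chose the groups, so these counts are shaped by that selection and are only a description. Of the 74 middle libraries, 24 were above 0 in the synthesis arm alone and 20 in the regulator arm alone, and within them the arms had r = -0.516, which selection on their joint mean affects.

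**Figure D1:**
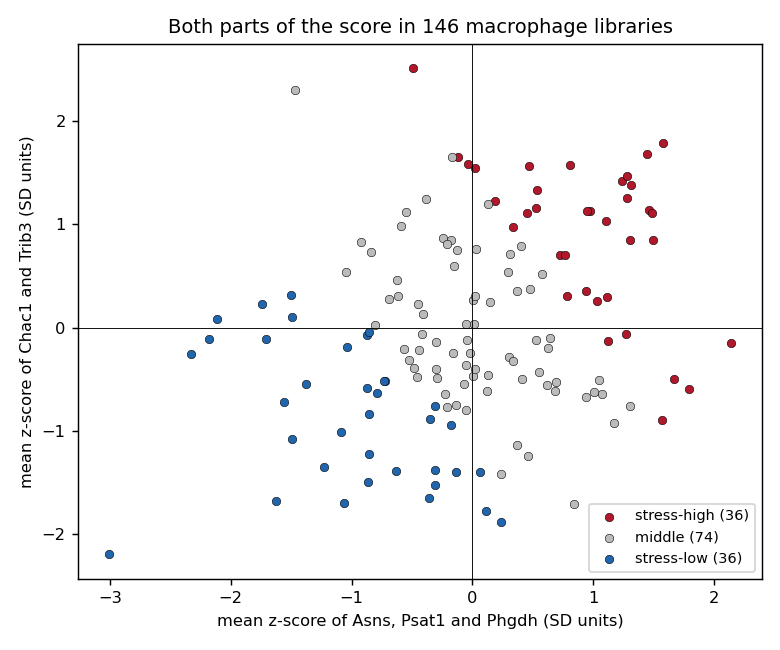
Each point is 1 of 146 libraries, placed by its mean z-score of Asns, Psat1 and Phgdh (x, SD units) and of Chac1 and Trib3 (y, SD units), with the 36 stress-high libraries in red, the 36 stress-low libraries in blue and the 74 middle libraries in grey. Of the stress-high points, 27 lie above 0 on both axes, 6 on the x axis alone and 3 on the y axis alone. The groups were selected on the same genes.

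Promoters of the score genes were read for the core of the C/EBP-ATF response element, the site that ATF4 and C/EBP proteins bind together. The letters searched were TGATGNAA, on both strands, in the 300 bases from 250 before to 50 after each RefSeq gene start (GRCm38.p6). Of all 32851 promoters in the RefSeq table, 3.97% held a match, and of its 27025 genes 4.51% had one in at least 1 promoter. Asns, Chac1 and Trib3 had a match, and Psat1 and Phgdh had none in this window. The 250 bases before the start are printed for Asns and Chac1, which stand for the synthesis arm and the regulator arm, with the core in capitals. The Asns stretch is chr6:7693210-7693459 and the Chac1 stretch chr2:119350992-119351241, each written along the strand of its gene; in Chac1 the core reads on the opposite strand, so its capitals are the reverse complement.
Asns: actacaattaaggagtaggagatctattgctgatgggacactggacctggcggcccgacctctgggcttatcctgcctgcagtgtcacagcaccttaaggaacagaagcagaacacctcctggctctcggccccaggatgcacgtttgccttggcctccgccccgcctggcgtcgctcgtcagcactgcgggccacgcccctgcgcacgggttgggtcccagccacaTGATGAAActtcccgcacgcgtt
Chac1: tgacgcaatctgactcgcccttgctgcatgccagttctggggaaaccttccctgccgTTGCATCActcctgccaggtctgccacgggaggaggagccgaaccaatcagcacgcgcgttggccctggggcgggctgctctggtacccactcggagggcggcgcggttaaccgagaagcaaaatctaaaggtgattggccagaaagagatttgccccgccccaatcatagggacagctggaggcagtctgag

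Only genes with a match are shown next, and their cores are alike because the search fixed those letters. Windows of 30 bases around the core are printed for score genes and for genes compared below. Each is written along the strand on which the core reads TGATGNAA, which is in capitals. The distance is that of the core's first base in the gene's direction to the RefSeq start. RefSeq starts differ from the ends of the GENCODE spans given above: that of Asns lies inside its span and that of Trib3 outside it.
Asns, chr6:7693214-7693243, 23 bases before the start: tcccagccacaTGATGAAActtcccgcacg
Chac1, chr2:119351038-119351067, 193 bases before the start: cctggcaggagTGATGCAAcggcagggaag
Trib3, chr2:152344028-152344057, base 15 after the start: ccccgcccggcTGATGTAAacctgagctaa
Slc1a4, chr11:20332699-20332728, 4 bases before the start: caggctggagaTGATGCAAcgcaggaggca
Pck2, chr14:55540152-55540181, 103 bases before the start: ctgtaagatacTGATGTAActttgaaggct
Nupr1, chr7:126625562-126625591, 110 bases before the start: caagccctgtcTGATGCAAtctggcccttt
Herpud1, chr8:94386306-94386335, 112 bases before the start: ggggtgcgggcTGATGCAAcccgccgtggt
Gars, chr6:55037960-55037989, 30 bases before the start: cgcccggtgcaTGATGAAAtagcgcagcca
Iars, chr13:49682126-49682155, base 8 after the start: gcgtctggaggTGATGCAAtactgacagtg
Yars, chr4:129189895-129189924, base 4 after the start: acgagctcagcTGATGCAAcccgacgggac
Slc7a11 carries the core in both directions, 66 and 47 bases before its start. Of the cytosolic tRNA synthetases in the table, 5 of 13 had the core (among them Gars, Iars, Tars and Yars), whereas 0 of 15 mitochondrial synthetases and 0 of 10 serine and one-carbon enzymes had one. The core was found in 6.79% of the 530 genes with a promoter in the table that were called higher in stress-high libraries, 2.92% of the 582 called lower and 2.80% of the 9457 tested. A match is a description of letters and not a measured binding site.

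Depth, sex and cell-type markers were compared before the genes. Total counts ran from 21.3 to 121 M with a median of 40.2 M in stress-high libraries, and from 21.6 to 101 M with a median of 45.7 M in stress-low libraries (difference in mean log2 total -0.12, permutation test, two-sided, p = 0.298). In each group, 2 libraries went against their sex label. The summed level of 9 macrophage markers had a median of 14194 CPM (11948 to 18633) in stress-high libraries and 16318 CPM (12974 to 25665) in stress-low libraries. Marker sums of other cell types overlapped: 12 genes of neutrophils and their precursors had medians of 358 CPM in stress-high libraries and 335.1 CPM in stress-low libraries, with Ly6g under 0.1 CPM on average, and 7 erythroid genes 0.281 CPM in stress-high libraries and 0.263 CPM in stress-low libraries. The 6 monocyte genes had medians of 1483 CPM in stress-high libraries (556 to 3202) and 1991 CPM in stress-low libraries (485 to 4159). For some lists few genes could be tested: 1 of 8 for B cells, 2 of 8 for T and NK cells, 3 of 6 for platelet precursors and 2 of 6 for mast cells. None of the 7 erythroid genes was tested, so that list could not give a call. No tested member of the 9 marker lists of neutrophils, dendritic cells, stromal cells, osteoclasts, lymphocytes (B, and T with NK), red cells, platelet precursors or mast cells passed the test, nor did a monocyte gene (edgeR at adjusted p under 0.05; 3 genes had unadjusted p under 0.05, 1 each for dendritic cells, osteoclasts and mast cells, and DESeq2 called 0). In the 74 middle libraries, tested for a slope on the score, where 9.70% of all 11592 genes had a called negative slope, some of these markers passed, each with a negative slope: 1 of 11 neutrophil genes (median slope -0.58 per unit of score), 2 of 6 monocyte genes (-0.81), 3 of 6 osteoclast genes (-0.74), 2 of 6 dendritic cell genes (-0.33) and the single B cell gene tested (-0.84). Their part in the slopes of other genes there was not tested.

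Collection dates moved with the score. The labels give 28 dates, and 61.1% of the score's variance lay between them, with 48% for the synthesis arm and 56.1% for the regulator arm. Only 5 dates held libraries of both groups, 10 held stress-high but no stress-low libraries, and 11 the reverse. A single date gave 8 of the 36 stress-high libraries from its 10 libraries, with a median score of 1.19, and another gave 7 from its 8. The label marks when a mouse's sample was collected, and whether culture, medium or animals differed by date was not tested. Counts with date in the model, or without these dates, are therefore given with the gene lists.

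**Figure D2:**
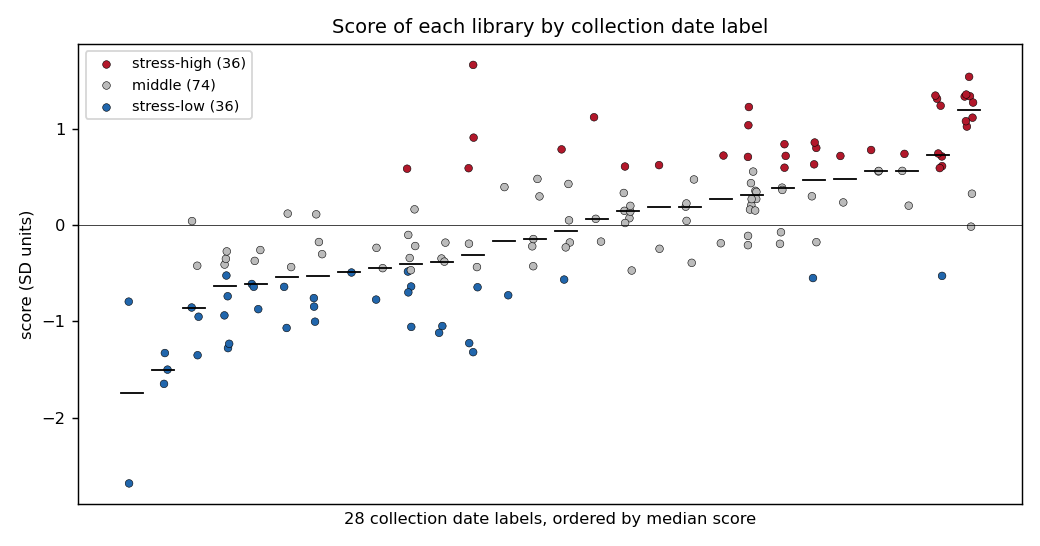
The score of each library (y, SD units) is plotted by collection date (x, 28 dates ordered by median score), with stress-high libraries in red, middle libraries in grey, stress-low libraries in blue and the median of each date as a bar. The date at the far right holds 8 stress-high libraries of 10, and only 5 dates hold both red and blue points.

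Of 11886 genes tested outside the score, 682 were higher and 716 lower in stress-high libraries (edgeR quasi-likelihood test with plate as covariate, Benjamini-Hochberg adjusted p under 0.05 over all genes fitted), which is 5.74% and 6.02% of the genes tested. Most differences were small: the median absolute log2 difference of called genes was 0.14, only 20 of the 682 exceeded 1.5-fold, and 15 of the 716. Since the groups were selected on 5 genes of the same libraries, these p values describe association with the score over mice, and cultures of a shared date are treated as independent. With date as a block (limma voom, plate as covariate, correlation within dates 0.2343), 658 genes were higher (5.54%) and 741 lower (6.23%), and 999 of the 1398 called genes were called the same way. The 74 middle libraries, which entered neither group, were tested for a slope on the score. There 1192 genes had a positive and 1124 a negative slope at adjusted p under 0.05, 10.3% and 9.70% of 11592. Positive and negative slopes counted below in these libraries are those called at this threshold. Of 1394 called genes also tested there, 1268 had the same sign, 511 were called the same way and 0 the other way.

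The alternatives with date differed in how much they kept. With date in place of plate, 444 genes were higher (3.74%) and 348 lower (2.93%), and 317 of the 1398 called genes were called the same way. In that fit only the 5 dates with both groups bear on the difference, and plate is left out. Those dates held 1 to 7 stress-high and 1 to 4 stress-low libraries each. Whether calls were lost there through date or through the fewer libraries was not tested. A slope on the score over all 146 libraries with date and plate in the model called 670 genes higher (5.47%) and 508 lower (4.15%) of 12242, among them 624 of the 1398. Without the date that gave 8 stress-high libraries, 1591 genes were higher (13.3%) and 1346 lower (11.2%); without the date that gave 7, 553 were higher (4.64%) and 463 lower (3.89%). Without the libraries that went against their sex label, 548 were higher and 596 lower. Counts below are from the comparison with plate unless another is named. List counts from another fit are to be read against the shares of all genes called in that fit, given above. An interaction with labelled sex called no gene (edgeR, 0 of 11886 at adjusted p under 0.05, 507 at unadjusted p under 0.05; limma voom 0 and 458).

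Most cytosolic aminoacyl-tRNA synthetases, which load amino acids onto tRNA, were higher in stress-high libraries. The counts were 16 of 20 higher and 0 lower, with a median log2 difference of 0.23, against 0.0026 over all genes tested. Cars, which loads cysteine, had the largest difference. Its lowest, median and highest levels were 76.3, 95.8 and 137 CPM in stress-high libraries and 60.6, 76.8 and 99 CPM in stress-low libraries. In 35 of 36 stress-high libraries it lay above the stress-low median, though only 13 exceeded every stress-low library. The log2 difference, given here and throughout ± SE, was 0.37 ± 0.029 (adjusted p = 1.74e-16), with the same sign in all 7 plates. Plates differ in size: plate 1 held only 1 library of each group and plate 4 only 2 of each. In plate 7 all 8 stress-high libraries came from a single date that held no stress-low library.

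Other members load serine, asparagine, tyrosine, glycine, leucine and alanine. Sars had 194, 246 and 321 CPM in stress-high libraries and 167, 203 and 249 CPM in stress-low libraries, a log2 difference of 0.29 ± 0.023 (adjusted p = 1.74e-16). For Nars the difference was 0.30 ± 0.024, for Yars 0.36 ± 0.030, for Gars 0.30 ± 0.026, for Lars 0.25 ± 0.022 and for Aars 0.35 ± 0.032 on the log2 scale. Eprs, the fused enzyme for glutamate and proline, differed by 0.25 ± 0.026, Iars (isoleucine) by 0.28 ± 0.030 and Mars (methionine) by 0.31 ± 0.039. Tars, Wars, Rars, Vars, Farsb and Hars were also higher, by 0.10 to 0.22. The 4 that did not pass were Kars (0.079 ± 0.028, adjusted p = 0.0531), Farsa (0.033 ± 0.034, adjusted p = 0.565), Dars (0.023 ± 0.033, adjusted p = 0.695) and Qars (0.0024 ± 0.029, adjusted p = 0.970). Qars loads glutamine, and its medians of 118 CPM in stress-high libraries and 119 CPM in stress-low libraries came from nearly coinciding ranges.

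The mitochondrial synthetases, encoded by separate nuclear genes, had 2 of 17 higher and 0 lower, with a median of 0.04. These were Fars2 (0.14 ± 0.037, adjusted p = 0.0118) and Ears2 (0.19 ± 0.057, adjusted p = 0.0171). Lars2 was the widest in range, with 76.1, 210.3 and 713 CPM in stress-high libraries and 92.9, 204 and 3605 CPM in stress-low libraries (log2 difference -0.66 ± 0.24, adjusted p = 0.0537). In the middle libraries, which the same score ranked, 13 of 20 cytosolic genes had a called positive slope and 0 a called negative one. Of all genes tested there, 10.3% had a called positive slope. These libraries share plates with the groups, and date was not in that fit. With date in place of plate 10 of 20 were higher, and in the slope over 146 libraries with date and plate 16 of 20. Without the date of 8 stress-high libraries the count was 17, and without the date of 7 it was 16.

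**Figure D3:**
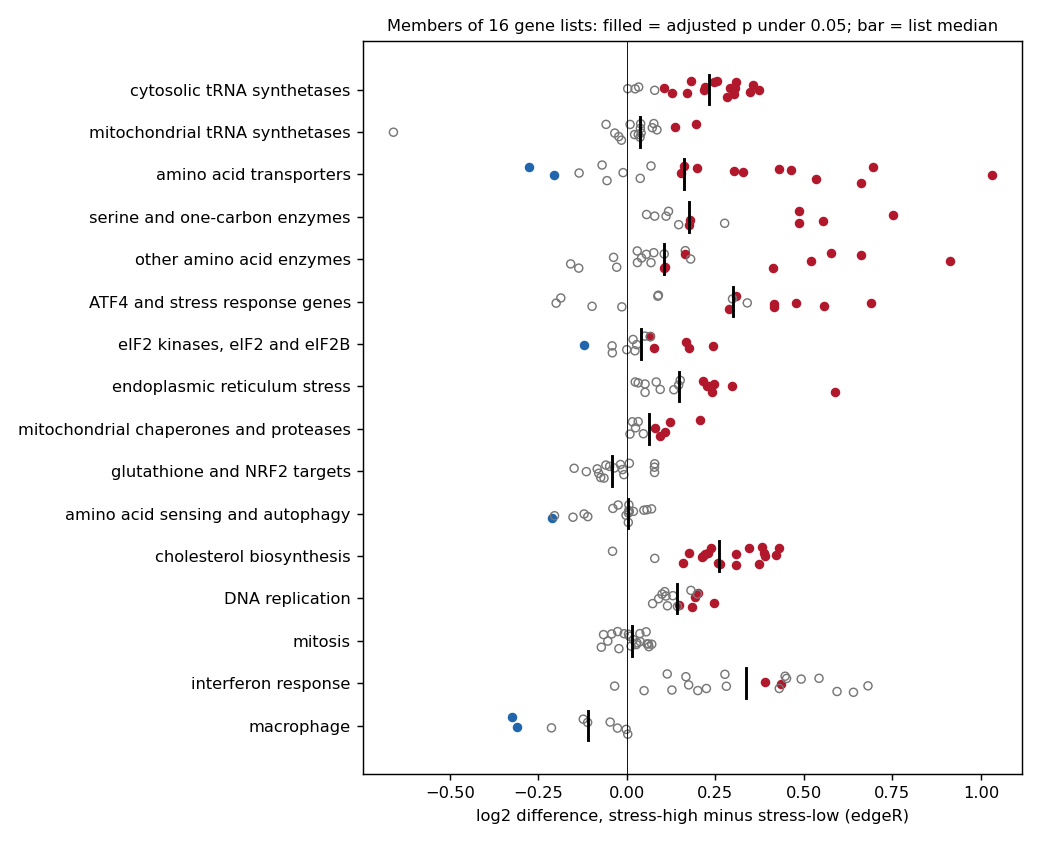
Each point is 1 tested gene, placed by its log2 difference between stress-high and stress-low libraries (x) within its list (y); filled red points were higher and filled blue points lower at adjusted p under 0.05, open points did not pass, and the bar is the list median. Cytosolic tRNA synthetases lie to the right of 0 with 16 of 20 filled. Glutathione and NRF2 targets and mitosis genes have none filled. Of all genes tested, 5.74% were called higher and 6.02% lower.

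Amino acid carriers included the gene with the largest difference among called genes outside the score whose mean log2 CPM reached 1. Slc1a4, a neutral amino acid carrier for alanine, serine and cysteine, had 3.28, 9.55 and 21.4 CPM in stress-high libraries, against 2.90, 4.62 and 9.66 CPM in stress-low libraries. The upper 18 stress-high libraries exceeded every stress-low library, and the log2 difference was 1.03 ± 0.079 (adjusted p = 1.74e-16). It was positive in all 7 plates, from 0.63 to 1.29, and in each of the 5 dates with both groups. Of these dates, the one with 7 stress-high libraries held 1 stress-low library, and another held 1 of each group.

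Slc7a5, the large neutral amino acid carrier that imports leucine, had 73.1, 135 and 236 CPM in stress-high libraries and 55.5, 83.9 and 151 CPM in stress-low libraries, a log2 difference of 0.66 ± 0.057 (adjusted p = 1.77e-14). Its partner subunit Slc3a2 differed by 0.16 ± 0.034. The cationic carrier Slc7a1, which imports arginine and lysine, had 108, 222 and 385 CPM in stress-high libraries and 109.8, 152 and 223 CPM in stress-low libraries, differing by 0.53 ± 0.059. Overlap was wide for each of these, yet at least 34 of 36 stress-high libraries lay above the stress-low median for Slc1a4, Slc7a5 and Slc7a1. Slc7a11, the cystine importer, differed by 0.43 ± 0.10 (adjusted p = 0.00371), the glutamine carriers Slc38a2 by 0.33 ± 0.060, Slc1a5 by 0.30 ± 0.065 and Slc38a1 by 0.15 ± 0.028.

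In all, 11 of 19 carriers were higher and 2 lower, with a median of 0.16. Slc38a7, the glycine carrier Slc6a9 (26.5% of its 50-base words shared, so uncertain) and the sparsely expressed Slc7a3 complete the 11. Lower were Slc36a1, a lysosomal exporter of small amino acids (-0.28 ± 0.058, adjusted p = 6.47e-04), and Slc43a2, a facilitated carrier of large neutral amino acids (-0.21 ± 0.047, adjusted p = 0.00168). Slc43a2 had 447, 528 and 787 CPM in stress-high libraries and 467, 645 and 877 CPM in stress-low libraries, and was lower in each of the 7 plates. In the middle libraries 1 of 19 had a called positive slope (Slc1a4, 0.56 per unit of score, adjusted p = 0.00955) and 1 a called negative one (Slc43a2). With date in place of plate 3 were higher and 1 lower, and Slc6a9 had the opposite sign. With date as a block 9 were higher and 2 lower, in the slope over 146 libraries with date and plate 5 and 2, without the date of 8 stress-high libraries 8 and 3, and without the date of 7 they were 10 and 2. The other member of the list, Slc43a1, was too low to test.

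Serine and one-carbon enzymes beyond the score genes were higher in 6 of 12 and lower in 0, with a median of 0.18. Mthfd2, the mitochondrial enzyme that oxidises one-carbon units, had 99.6, 130.2 and 199 CPM in stress-high libraries and 58.8, 90.2 and 147 CPM in stress-low libraries. Every stress-high library lay above the stress-low median, 11 of them above every stress-low library, and the log2 difference was 0.55 ± 0.038 (adjusted p = 3.23e-18), the smallest p of the 11886 genes tested. Psph, the last step of serine synthesis, had 16.5, 30.7 and 42.6 CPM in stress-high libraries and 11.1, 21.8 and 35.5 CPM in stress-low libraries (0.49 ± 0.063). Shmt2, which splits serine into glycine and a one-carbon unit in mitochondria, had 77.6, 143 and 209 CPM in stress-high libraries and 47.8, 95.6 and 167 CPM in stress-low libraries (0.49 ± 0.065).

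Aldh1l2, a mitochondrial enzyme that releases the carbon unit while making NADPH, differed by 0.75 ± 0.11, with 5.83, 10.8 and 20.1 CPM in stress-high libraries and 1.70, 6.63 and 10.1 CPM in stress-low libraries. The mitochondrial Mthfd1l (0.17 ± 0.043) was higher by less. The cytosolic counterparts did not pass: Shmt1 differed by 0.056 ± 0.085 (adjusted p = 0.715) and Mthfd1 by 0.15 ± 0.053 (adjusted p = 0.0588). Whether mitochondrial and cytosolic members differ from each other was not tested. In the middle libraries 8 of 12 had a called positive slope, Shmt1 and Mthfd1 among them. With date in place of plate 4 of 12 were higher.

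Among 21 tested enzymes of other amino acids, 8 were higher and 0 lower. Aldh18a1, which makes the precursor of proline and ornithine, had 47.9, 69.4 and 110.3 CPM in stress-high libraries and 29.5, 47.2 and 76 CPM in stress-low libraries; all 36 stress-high libraries exceeded the stress-low median, and the log2 difference was 0.52 ± 0.047 (adjusted p = 6.90e-14). Pck2, the mitochondrial phosphoenolpyruvate carboxykinase, differed by 0.58 ± 0.052, with 34.7, 59.8 and 103 CPM in stress-high libraries and 27, 42.7 and 64.3 CPM in stress-low libraries. The branched-chain transaminase Bcat1 differed by 0.66 ± 0.11 and its mitochondrial relative Bcat2 by 0.10 ± 0.036. Transaminases Gpt2 (0.41 ± 0.056), Got1 (0.16 ± 0.024) and Oat (0.11 ± 0.021) were higher too. Cth, which makes cysteine, had a difference of 0.91 ± 0.30 from medians of 1.83 CPM in stress-high libraries and 1.21 CPM in stress-low libraries (adjusted p = 0.0324). The test was not passed by Pycr1 (0.17 ± 0.15, adjusted p = 0.498) or Glud1 (0.030 ± 0.023, adjusted p = 0.417), and Cbs was too low to test. The middle libraries gave 8 called positive slopes and 1 called negative, that of Arg1. The fit with date in place of plate gave 4 higher and 0 lower.

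**Figure D4:**
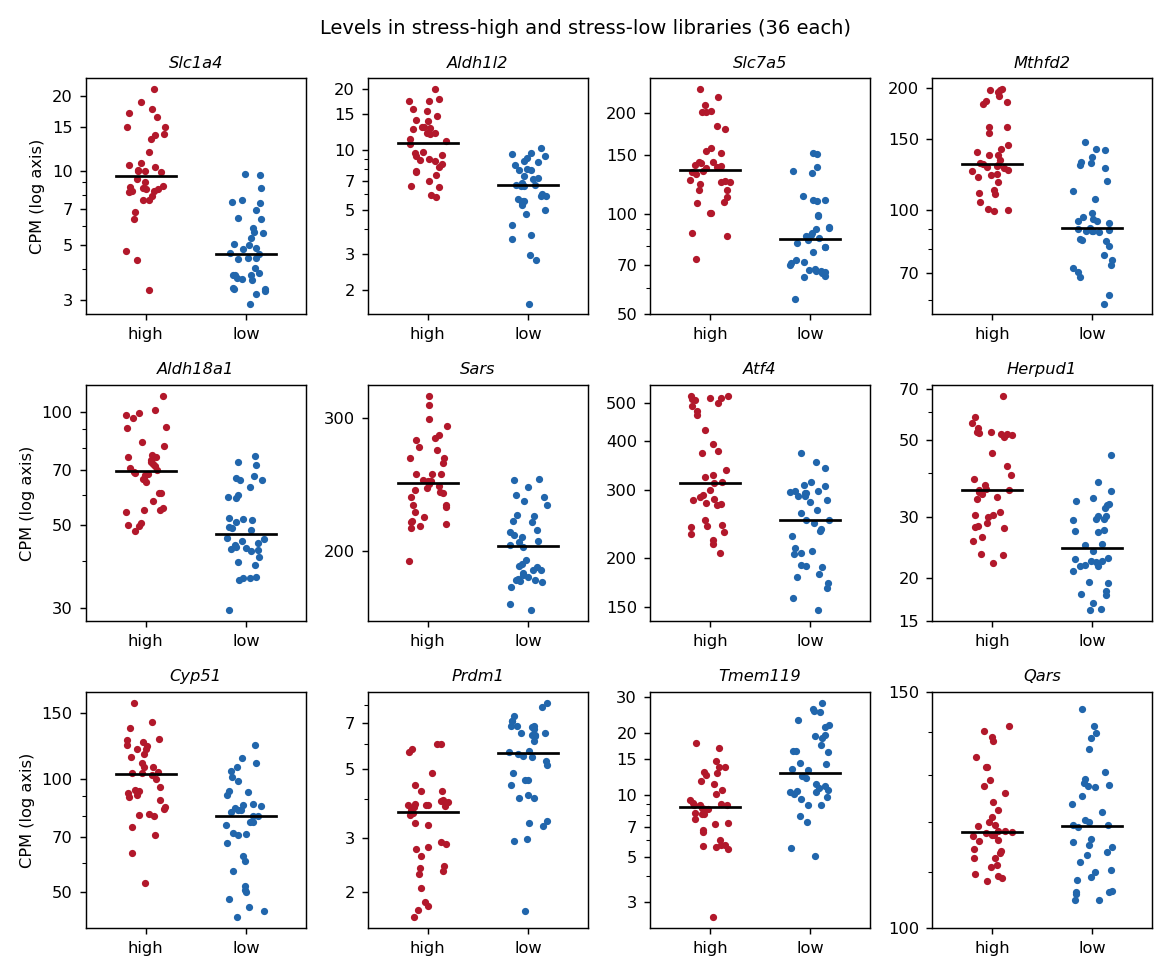
Levels of 12 genes (CPM, log axis) are shown for each of the 36 stress-high libraries (left, red) and the 36 stress-low libraries (right, blue), with the median as a bar. Slc1a4 medians are 9.55 CPM in stress-high libraries and 4.62 CPM in stress-low libraries, whereas Qars, a synthetase that did not pass, has medians of 118 CPM in stress-high libraries and 119 CPM in stress-low libraries; every pair of groups overlaps.

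Of 15 tested transcription factors and stress regulators downstream of eIF2, 7 were higher and 0 lower, with a median log2 difference of 0.30. Atf4 itself had 206, 312 and 520.5 CPM in stress-high libraries and 147, 251 and 372 CPM in stress-low libraries. Only 27 of 36 stress-high libraries lay above the stress-low median, and the log2 difference of 0.48 ± 0.077 (adjusted p = 8.47e-06) was positive in 5 of 7 plates. Nupr1, a stress-induced chromatin protein, had 6.95, 11.2 and 22 CPM in stress-high libraries and 4.24, 8.45 and 12.6 CPM in stress-low libraries (0.56 ± 0.091, adjusted p = 1.15e-05). Ddit3, which encodes CHOP, differed by 0.41 ± 0.10 (adjusted p = 0.00441), Jdp2, an AP-1 family repressor, by 0.41 ± 0.054 (adjusted p = 4.12e-08), and Eif4ebp1, a brake on cap-dependent translation, by 0.31 ± 0.043 (adjusted p = 2.47e-07). Stc2, a secreted glycoprotein (0.69 ± 0.22, adjusted p = 0.0319), and Sesn2, a leucine-sensing inhibitor of mTORC1 (0.29 ± 0.10, adjusted p = 0.0485), passed narrowly.

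Members that did not pass include Atf3 (-0.20 ± 0.11, adjusted p = 0.228), Atf5 (0.089 ± 0.085, adjusted p = 0.530), Cebpb (-0.014 ± 0.077, adjusted p = 0.930) and Ppp1r15a, which reverses eIF2 phosphorylation (-0.098 ± 0.097, adjusted p = 0.548). Fgf21 was at 0 counts in all 72 libraries. These counts differed between fits and sets of libraries. In the middle libraries, fitted with plate but not date, 0 of 15 had a called positive slope. A called negative slope was found there for 2, Atf5 and Ddit4. With date in place of plate 0 of 15 passed in either direction. With date as a block 5 were higher, and Sesn2 and Stc2 did not pass. In the slope over 146 libraries with date and plate 3 were higher and 0 lower. Without the date of 8 stress-high libraries 4 were higher and 1 lower: Atf4 then differed by 0.36 (adjusted p = 0.00241) and Ddit3 by 0.28 (adjusted p = 0.0775). Without the date of 7 the count was 5 higher and 0 lower.

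Among 14 genes of the eIF2 switch, 5 were higher and 1 lower. Eif2s2, the beta subunit of eIF2, had 74.7, 84.7 and 128 CPM in stress-high libraries and 56.9, 69.9 and 104 CPM in stress-low libraries, and all 36 stress-high libraries exceeded the stress-low median (0.24 ± 0.031, adjusted p = 2.34e-08). Ppp1r15b, the constitutive partner of the eIF2 phosphatase, differed by 0.17 ± 0.040, Impact, an inhibitor of GCN2, by 0.17 ± 0.043, and the eIF2B subunits Eif2b2 and Eif2b1 by 0.077 ± 0.025 and 0.066 ± 0.022. Of the 4 kinases, Eif2ak3 (PERK) was lower (-0.12 ± 0.027, adjusted p = 0.00151) and Eif2ak1, Eif2ak2 and Eif2ak4 (GCN2) had adjusted p of 0.195, 0.541 and 0.995. The list had 1 gene higher and 1 lower both in the middle libraries and with date in place of plate, and 3 higher and 1 lower with date as a block. Without the date of 8 stress-high libraries 6 were higher and 1 lower, and without the date of 7 the counts were 3 and 1. Kinase activity is not read by transcript levels.

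Endoplasmic reticulum chaperones and the quality-control gene Herpud1 were higher in 7 of 16 and lower in 0, with a median of 0.15. Herpud1, which helps clear misfolded proteins, had 22.1, 35.8 and 66.9 CPM in stress-high libraries and 16.1, 24.4 and 45.4 CPM in stress-low libraries (0.59 ± 0.074, adjusted p = 1.40e-08). The remaining 6 were Pdia4 (0.30 ± 0.084), Sdf2l1 (0.25 ± 0.085), Pdia6 (0.24 ± 0.072), Manf (0.23 ± 0.075), Creld2 (0.23 ± 0.072) and Hspa5 (0.22 ± 0.073), whose product BiP is the main chaperone of the compartment. In the middle libraries 13 of 16 had a called positive slope, with Hspa5 at 0.66 per unit of score (adjusted p = 9.22e-04). With date in place of plate 1 of 16 was higher, and in the slope over 146 libraries with date and plate 10. Mitochondrial chaperones and proteases had 5 of 10 higher, led by Hspa9 (0.21 ± 0.022, adjusted p = 2.10e-11), and 4 of 10 with date in place of plate.

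Few antioxidant and nutrient-sensing genes passed the test, in lists of 16 and 17. Over all genes tested, 5.74% were called higher and 6.02% lower, so few calls were also due in lists this short. Of 16 glutathione and NRF2 target genes 0 passed (3 at unadjusted p under 0.05; DESeq2 1), with a median log2 difference of -0.04. Gclc and Gclm, which make the first intermediate of glutathione, differed by -0.11 ± 0.047 and -0.15 ± 0.073, and Hmox1 by -0.084 ± 0.078. Of 17 genes of amino acid sensing and autophagy, only Castor2, a relative of the arginine sensor of mTORC1, passed, and it was lower (-0.21 ± 0.048, adjusted p = 0.00186). Sqstm1, the autophagy receptor p62, differed by 0.070 ± 0.071 (adjusted p = 0.564). Of the 16 glutathione and NRF2 targets 2 had a called positive slope in the middle libraries. There 4 of the 17 sensing and autophagy genes had a called negative slope. With date in place of plate 0 of the 16 passed, and 2 of the 17 were lower.

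Cholesterol biosynthesis was the other broad group, with 18 of 20 genes higher, 0 lower and a median of 0.26. Msmo1 had 91.7, 154 and 191 CPM in stress-high libraries and 75.2, 125 and 166 CPM in stress-low libraries (0.31 ± 0.054, adjusted p = 3.74e-05). Cyp51, which removes a methyl group from lanosterol, had 53, 103 and 159.5 CPM in stress-high libraries and 42.9, 79.8 and 123 CPM in stress-low libraries (0.39 ± 0.074, adjusted p = 1.73e-04), and was higher in all 7 plates. Fdps and Acat2 differed by 0.38 ± 0.075 and 0.42 ± 0.084 but share 47.7% and 48% of their 50-base words with other genes and are uncertain. In the middle libraries 13 of 20 had a called positive slope. The count differed between the fits with date: 2 of 20 passed with date in place of plate, where Mvd and Pmvk turned negative, 9 of 20 in the slope over 146 libraries with date and plate, and 13 of 20 with date as a block. Fatty acid synthesis had 3 of 11 higher (Acly 0.084 ± 0.020, Fasn 0.28 ± 0.075, Elovl5 0.095 ± 0.029), and 2 of 9 LXR targets were lower, Mylip (-0.31 ± 0.092) and Arl4c (-0.15 ± 0.053). Neither list had a called gene with date in place of plate. Among fatty acid genes 2 of 11 had a called positive slope in the middle libraries. Of 9 LXR targets there, 5 had a called negative and 1 a called positive slope, and the median of the 9 was -0.45. The sterol esterifying enzyme Soat2 was among the leading genes, with 1.31, 3.08 and 7.76 CPM in stress-high libraries and 0.795, 1.66 and 3.51 CPM in stress-low libraries (0.76 ± 0.10, adjusted p = 7.54e-08).

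Of 15 DNA replication genes 5 were higher, led by Mcm7 (0.25 ± 0.057; 33.1% shared words, uncertain) and Mcm3 (0.20 ± 0.061, adjusted p = 0.0216), while 0 of 20 mitosis genes passed (0 at unadjusted p under 0.05; DESeq2 0). Over all genes tested, 5.74% were called higher and 6.02% lower. All 15 replication genes had a called positive slope in the middle libraries, and with date in place of plate 0 passed. With date as a block the count was 6, without the date of 8 stress-high libraries 14, and without the date of 7 it was 4. The shares of all genes called higher in these fits were 5.54%, 13.3% and 4.64%. Ncl was the only called gene of 12 for ribosome biogenesis (0.086 ± 0.025), and Bbc3, the p53 target PUMA, of 9 p53 targets (0.41 ± 0.12, adjusted p = 0.0129). Of the p53 targets, 1 had a called positive slope in the middle libraries. None of them passed with date in place of plate, with date as a block, with lane within plate or without the date of 7 stress-high libraries. Interferon genes had a median log2 difference of 0.34 with 19 of 20 positive, yet 2 passed, Oas1a (0.43 ± 0.14, uncertain with 57% shared words) and Oas3 (0.39 ± 0.13, adjusted p = 0.0433). That count was 10 without the date of 8 stress-high libraries, 9 without the date of 7, and 0 with date in place of plate, where the median was -0.08. Over all genes, 13.3%, 4.64% and 3.74% were higher in these fits. MHC class II (7 genes) and inflammatory cytokines (14 genes) had 0 called, at 1 and 3 genes with unadjusted p under 0.05; DESeq2 called 0 in both. However, 4 of the 7 MHC class II genes had a called negative slope in the middle libraries and 0 a called positive one. The median of the 7 was -0.52. None of the 7 passed with date in place of plate, and 1 of the 14 cytokine genes was lower.

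The leading genes higher in stress-high libraries were otherwise of mixed function. By size of difference, the 15 whose mean log2 CPM reached 1 were Slc1a4, Oas1g (0.79 ± 0.27; 47.6% shared words, uncertain), Soat2, Aldh1l2, Srp9, Stc2, Bcat1, Slc7a5, Chn2, Herpud1, Pck2, Nupr1, Mthfd2, Slc7a1 and Aldh18a1. Of these, 11 belong to the amino acid, ATF4 and endoplasmic reticulum lists. Srp9, a subunit of the signal recognition particle, had a difference of 0.72 ± 0.22 with 6.00, 11.3 and 66.7 CPM in stress-high libraries and 6.33, 9.40 and 38.8 CPM in stress-low libraries, so a few libraries far above the median set its size. Chn2, a GTPase-activating protein for Rac, differed by 0.65 ± 0.17 (adjusted p = 0.00971).

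The 15 largest differences in the other direction were taken at the same mean level. Prdm1, which encodes the transcriptional repressor BLIMP1, had 1.66, 3.64 and 6.02 CPM in stress-high libraries and 1.74, 5.62 and 8.16 CPM in stress-low libraries. Only 4 of 36 stress-high libraries lay above the stress-low median; the log2 difference was -0.68 ± 0.11 (adjusted p = 6.44e-06) and was negative in all 7 plates. Tmem119, a membrane protein known as a microglial marker, had 2.53, 8.75 and 17.9 CPM in stress-high libraries and 5.06, 12.8 and 28.1 CPM in stress-low libraries (-0.66 ± 0.13, adjusted p = 4.71e-04). Cmklr1, the chemerin receptor, had 1.93, 5.89 and 12.3 CPM in stress-high libraries and 2.45, 8.56 and 18.3 CPM in stress-low libraries (-0.62 ± 0.12, adjusted p = 1.92e-04), with a negative slope in the middle libraries as well (-1.06 per unit of score, adjusted p = 0.00161).

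Caveolin gene Cav1 differed by -0.66 ± 0.16, the ectonucleotidase Nt5e by -0.51 ± 0.14, the junction protein Cgnl1 by -0.51 ± 0.13, the Notch ligand Jag1 by -0.49 ± 0.12 and the calcium pump Atp2b4 by -0.49 ± 0.11. Minar1 had the largest difference in this direction among them, -0.84 ± 0.25 (adjusted p = 0.0213), followed in the list by Slc36a2, a proton-coupled amino acid carrier (-0.67 ± 0.19), Rap1gap2 (-0.49 ± 0.11), the kinase Nuak1 (-0.48 ± 0.15) and the adhesion molecule Mcam (-0.47 ± 0.12). Abi3 and the adjoining Phospho1 (-0.52 ± 0.18 and -0.50 ± 0.11) share 64.6% and 82.3% of their 50-base words with another gene and are uncertain. Of 9 macrophage markers, 2 were lower, among them the lysozyme gene Lyz2 (-0.31 ± 0.074, adjusted p = 0.00328), while Csf1r (-0.0021 ± 0.026, adjusted p = 0.970) and Cd68 (-0.027 ± 0.033, adjusted p = 0.641) did not pass. The list had a median log2 difference of -0.11, with 1 of 9 positive and 3 at unadjusted p under 0.05 (edgeR). Of all genes tested, 6.02% were called lower. The count of markers lower was 2 in the middle libraries as well, 3 without the date of 8 stress-high libraries, and 0 with date in place of plate. In bulk RNA, fewer cells of a type and less RNA per cell cannot be told apart, and the part of these markers in the other differences was not tested.

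The arms of the score were set against each gene together, as slopes in 1 model over the 146 libraries. That model held plate but not date. Between dates lay 48% of the variance of the synthesis arm and 56.1% of the regulator arm. The slopes and their standard errors may therefore also hold differences between dates. These slopes are given as a description with standard errors and no test, since the arms were drawn after their correlations were seen. Serine and proline enzymes followed the synthesis arm: per SD, Shmt2 had 0.26 ± 0.015 on the synthesis arm and -0.026 ± 0.014 on the regulator arm, Psph 0.24 ± 0.016 and -0.010 ± 0.016, Aldh1l2 0.35 ± 0.031 and 0.042 ± 0.030, and Aldh18a1 0.21 ± 0.013 and 0.048 ± 0.013 (log2 units, SE). Stress regulators followed the other: Atf4 had -0.061 ± 0.014 on the synthesis arm and 0.30 ± 0.014 on the regulator arm, Ddit3 -0.12 ± 0.025 and 0.36 ± 0.026, Nupr1 -0.024 ± 0.020 and 0.32 ± 0.020, and Sesn2 -0.12 ± 0.026 and 0.29 ± 0.026. Atf4, Ddit3 and Sesn2 had negative slopes on the synthesis arm at a fixed regulator arm.

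Carriers divided. Slc7a5 leaned to the synthesis arm, with 0.23 ± 0.016 on it and 0.091 ± 0.016 on the regulator arm. Slc38a2 (-0.021 ± 0.017 on the synthesis arm, 0.19 ± 0.017 on the regulator arm) and Slc7a11 (-0.021 ± 0.035 and 0.25 ± 0.037) lay with the stress regulators. Slc1a4 had about equal slopes, 0.27 ± 0.029 on the synthesis arm and 0.26 ± 0.028 on the regulator arm, as did Mthfd2 (0.13 ± 0.011 and 0.15 ± 0.011) and Pck2 (0.16 ± 0.015 and 0.13 ± 0.015). Among synthetases, Cars (0.082 ± 0.0092 and 0.11 ± 0.0092) and Aars (0.076 ± 0.0097 and 0.10 ± 0.0097) had both, whereas Gars (0.11 ± 0.0066 and 0.034 ± 0.0066) leaned to the synthesis arm. Cyp51 had 0.23 ± 0.027 on the synthesis arm and -0.036 ± 0.027 on the regulator arm.

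**Figure D5:**
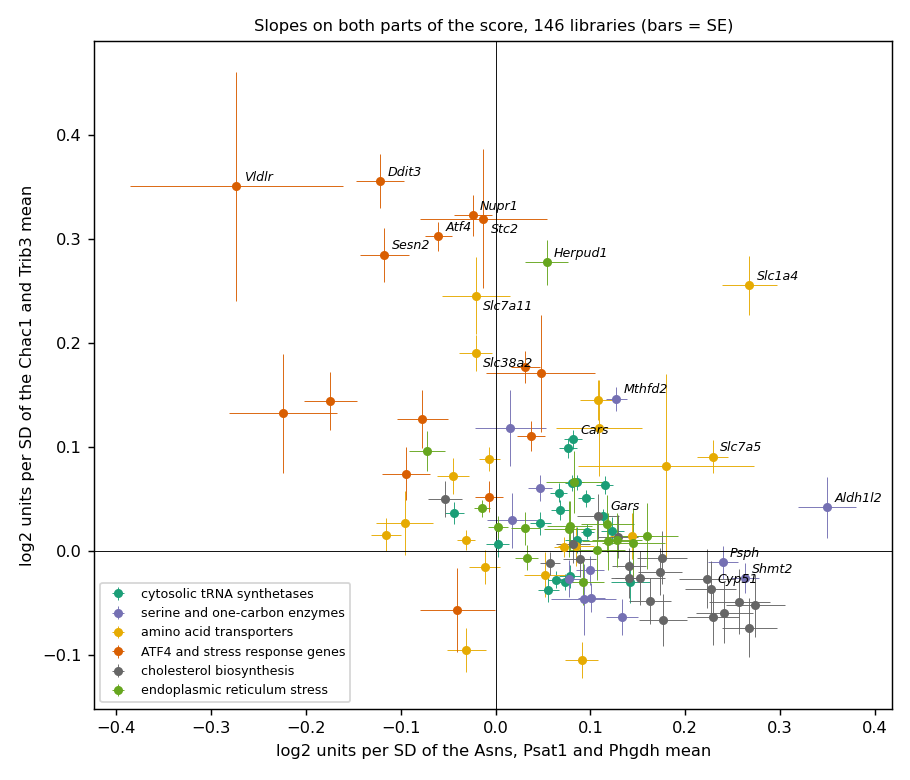
Each point is a gene of 6 lists, placed by its slope on the mean of Asns, Psat1 and Phgdh (x) and of Chac1 and Trib3 (y). Slopes are in log2 units per SD from 1 model over 146 libraries with plate but not date. Bars are the standard error. Ddit3, Nupr1 and Atf4 lie high on the y axis near or left of 0 on the x axis, Shmt2, Psph and Cyp51 lie to the right near 0 on the y axis, and Slc1a4 is high on both.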

How the data were processed

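Polyadenylated RNA was sequenced as 100 bp paired-end reads. Per the submitters' processing notes, reads were checked with FastQC, aligned with TopHat2 2.0.11 to GRCm38 (mm10) and counted with HTSeq 0.6.1; the strand setting and annotation release are not given in the sources used here. The deposited table of raw counts (22721 genes, 21899 matched to GENCODE M21) was used for all tests. The deposited log2 values, variance-stabilised by the authors with DESeq2, cover 10893 genes and served an alternative score. CPM was computed here from column sums. The members and gene lists were chosen with earlier results of these data known.

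Groups were compared with edgeR 4.0.16 (quasi-likelihood test, TMM, filterByExpr, plate as covariate), with limma 3.58.1 and DESeq2 1.42.0 as alternatives. On simulated data, 82 of 100 genes changed by 0.25 and 95 of 100 changed by 0.5 on the log2 scale were called, with 2 false calls among 11691. The simulated libraries were independent, with no plate or date effect. The real libraries had a correlation within dates of 0.2343, so these rates do not carry over to the calls above. The 5 score genes were fitted but not tested. Genes named are the members of the amino acid and stress lists, up to 4 members by p of other lists, and the 15 largest differences each way whose mean level was 1 or more in log2 CPM, leaving out predicted genes; 3 of these genes and 1 promoter window are not reported here. A gene with at least 20% of its 50-base words in another gene is called uncertain. The labels number no replicates, and nothing states separate cultures beyond 1 mouse per library. The p values of the main comparison therefore rest on the spread between mice within plates, which also holds differences between collection dates.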

Additional observations from a re-analysis of the deposited data

How the results depend on the processing

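Of the counts of 682 genes higher and 716 lower, these alternatives moved 1 or both by more than 1.5 times. Higher and lower counts were 356 and 466 without plate, 444 and 348 with date in place of plate, 348 and 309 with lane within plate, 361 and 369 for 24 against 24 libraries, 1479 and 1516 for 48 against 48, 1331 and 1372 as a slope over 146 libraries, and 1037 and 792 with the score not centred by plate. With Psat1, Chac1 or Trib3 left out of the score they were 433 and 498, 1942 and 1809, and 1700 and 1475. Leaving out plate 3, 7 or 8 gave 466 and 406, 1471 and 1302, and 435 and 401. Leaving out the date with 8 stress-high libraries of 10 gave 1591 and 1346, and that with 7 of 8 gave 553 and 463; these, the slope with date and the slopes on both arms were chosen after seeing the data. The cause was not tested. Of 4479 values of 128 called genes under 35 alternatives, 3830 kept direction and call, 644 lost the call and 5 changed sign: with date in place of plate Slc6a9 gave -0.072, Pmvk -0.014 and Mvd -0.013, Srp9 gave -0.20 with the score not centred, and Sesn2 -0.017 with Chac1 left out of the score. The 25 genes called the same way in all 35 include 9 cytosolic tRNA synthetases, Slc1a4, Slc1a5, Slc7a5, Mthfd2, Shmt2, Psph, Aldh1l2, Aldh18a1, Bcat1, Oat, Pck2, Eif2s2, Hspa9, Tmem119, Cmklr1 and Mcam. Called slopes in the middle libraries numbered 2316, against 2026 with limma voom and 2335 with a mean of at least 1 CPM. The labels give no replicate numbers that pair libraries. Date as a block gave 658 and 741, and 104 of the 128 genes kept their call. Only 36 of the 128 kept it with date in place of plate, and 60 with lane within plate. The fit with lane called 399 of all 1398 called genes the same way. Sex shares and depth kept their side of the threshold in 24 against 24, 48 against 48, and without libraries against their sex label.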
